A study of Mus musculus with 12 samples.

Results

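Saa3, Lcn2, Lbp, C3, C4b, Cfb, Serping1, Cp and Hp, 9 acute phase and complement genes, were examined in RNA-seq tables of mouse embryonic fibroblasts (MEF cells) that expressed a cancer-associated IDH2 mutant or were exposed to its product, 2-hydroxyglutarate (2-HG). Members were found by their gene symbol, and all 9 were listed among the 43280 entries of the 2MUT and Control table, while 8 were listed among the 23930 entries of the 2-HG table, which has no entry for Cfb. The members were chosen by their measured RPM and its change in both comparisons, and opposite directions between the comparisons were part of the choice. Their levels and changes are therefore a description without a test. The other genes of the same pathways were tested, but their lists were also chosen with earlier results of these data known.

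The fibroblasts came from C57BL/6 embryos of day 13.5 and formed a line that became immortal by itself during passaging. 2MUT cells carried human mutant IDH2 delivered by a retrovirus and selected with puromycin, and Control cells carried the empty vector. 2-HG(+) cells received 300 μM of a membrane-permeant octyl ester of (R)-2-HG for 24 h. 2-HG(-) cells are their reference, given DMSO for 24 h by the sample labels and untreated by the methods of the study. Each of the 4 groups had 3 libraries, described as triplicates in the methods of the study, and since neither these nor the labels say that they came from separate cultures, the p-values measure the spread between these libraries, which may be technical.

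Acute phase proteins are plasma proteins whose synthesis changes during inflammation. The liver makes most of them, but fibroblasts, macrophages and epithelia make several, and mouse Saa3 is a serum amyloid A produced largely outside the liver. Cytokines of the interleukin 6 and interleukin 1 families switch these genes on through STAT3, NF-κB and C/EBP factors. Complement is a cascade of plasma proteases that meets at C3, whose cleavage tags surfaces for phagocytosis, and several of its components are themselves acute phase proteins. A further group of acute phase proteins handles iron, haem and copper.

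Promoter sequences of 4 members, Saa3, Lcn2, C3 and Cp, were matched by symbol in a RefSeq promoter table on GRCm38.p6, as windows from 250 bases before to 50 bases after an annotated start. The sequences of Saa3, Lcn2 and C3 are shown because Saa3 and Lcn2 had the opposite directions between the comparisons and C3 did not. Capitals mark matches to the motifs of NF-κB, of C/EBP (TTNNGCAA) and of the interferon response element (ISRE, GAAA, any 2 bases and GAAA again), read on both strands. Only bases before the start are printed, without the 50 bases after it, and the bases from the first one that GENCODE M21 annotates as UTR, 24 in Saa3 and 58 in Lcn2, were also left off the end. Positions are counted back from -1, the base before the RefSeq start.

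Saa3, chr7:46715701-46715926, reverse strand: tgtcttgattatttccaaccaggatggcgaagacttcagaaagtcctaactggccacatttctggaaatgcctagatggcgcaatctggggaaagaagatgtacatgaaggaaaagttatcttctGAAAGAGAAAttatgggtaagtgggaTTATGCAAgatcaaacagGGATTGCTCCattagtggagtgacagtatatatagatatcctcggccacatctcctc
Lcn2, chr2:32387798-32387989, reverse strand: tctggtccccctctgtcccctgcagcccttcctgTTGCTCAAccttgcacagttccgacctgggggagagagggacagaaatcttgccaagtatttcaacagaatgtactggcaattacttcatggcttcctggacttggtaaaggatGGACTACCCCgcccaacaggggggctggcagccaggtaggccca
C3, chr17:57228137-57228386, reverse strand: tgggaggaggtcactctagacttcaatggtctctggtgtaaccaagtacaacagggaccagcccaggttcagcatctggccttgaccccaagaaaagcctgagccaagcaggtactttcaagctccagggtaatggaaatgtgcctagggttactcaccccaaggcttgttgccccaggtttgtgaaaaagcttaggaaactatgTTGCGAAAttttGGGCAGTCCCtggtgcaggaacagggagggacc

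In the Saa3 window, the ISRE match lay at positions -125 to -116, the C/EBP match at -99 to -92 and the NF-κB match at -81 to -72. The Lcn2 window held a C/EBP match at -216 to -209 and NF-κB matches at -102 to -93 and at -43 to -34, the latter within the bases left off. In C3 the C/EBP match at -45 to -38 and the NF-κB match at -33 to -24 lay next to each other. Cp had 2 windows, and 1 of them held a C/EBP match, at -70 to -63, within bases annotated as UTR. None of these matches overlapped another, and a STAT motif (TTCNNNGAA) had no match in the 5 windows of the 4 genes, which says only that these letters are not in these windows. Over 32851 windows of this length in the RefSeq table, 26.8% held the NF-κB motif, 10.8% the C/EBP motif, 8.3% the STAT motif and 3.44% the ISRE motif. Saa3, Lcn2 and C3 thus each held an NF-κB and a C/EBP match, and a match is a description of letters and not of binding.

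Reads counted on genes ranged from 6472439 to 7313602 per library in the 2MUT and Control table and from 14959318 to 18363768 in the 2-HG table. Levels are RPM, the reads of a gene per 1000000 counted reads. A level of 3 reads, used as the floor of detection, was 0.41 to 0.464 RPM in the 2MUT and Control table and 0.163 to 0.201 RPM in the 2-HG table, which covers counting error only. Log2 fold changes are differences of log2(RPM + 1) with their standard error (SE) from limma, a scale that understates the change of low genes. In bulk RNA, fewer cells of a type and less RNA per cell cannot be told apart. Of 9 fibroblast markers, all but Lum were above 1 RPM, and their summed level was 11615 to 12682 RPM in Control and 7908.6 to 8515.6 RPM in 2MUT, and 20204 to 21728 RPM in 2-HG(-) and 13736 to 14970 RPM in 2-HG(+). The single markers did not all move this way, since Thy1 rose with 2-HG from 2.76 to 5.23 RPM (limma adjusted p = 0.0136), Pdgfra was 372 and 458 RPM in Control and 2MUT without passing the threshold, and Col1a1 and Vim did not pass it with 2-HG. The part of this lower summed level in the results for the members was not tested.

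Among the 7 members whose mean reached 1 RPM over the 2MUT and Control libraries, Saa3, Lcn2 and Hp were higher in 2MUT and Lbp was lower, while C3, C4b and Cp overlapped between the groups, C3 with a lower mean in 2MUT. Their count past an adjusted p of 0.05 was 5, with 3 higher and 2 lower, where 16.5% of the 11065 genes tested were higher, 17.3% lower and 33.8% either. Groups without overlap were found for 3 members on the higher side and 1 on the lower, where 23.5% and 24.0% of all genes, 47.5% together, had no overlap. In the 2-HG experiment, all 5 members that reached a mean of 1 RPM, Saa3, Lcn2, Lbp, C3 and Cp, were lower in 2-HG(+), and the count past the threshold was 5 lower and 0 higher, where 16.7% of 10384 genes were lower, 16.1% higher and 32.8% either. These 5 had no overlap between the groups, as had 24.1% of all genes on the lower side, 22.2% on the higher side and 46.3% together. Saa3 and Lcn2 thus had opposite directions in the comparisons, and Lbp the same direction. Hp was also lower in 2-HG(+), but below the filter, with 43 reads in 2-HG(-) and 15 in 2-HG(+). The median log2 fold change of the members tested was -0.12 in 2MUT and -1.67 in 2-HG(+), beside 0.01 and -0.02 over all genes tested. Since these values chose the members, nothing is read from the counts.

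**Figure D1:**
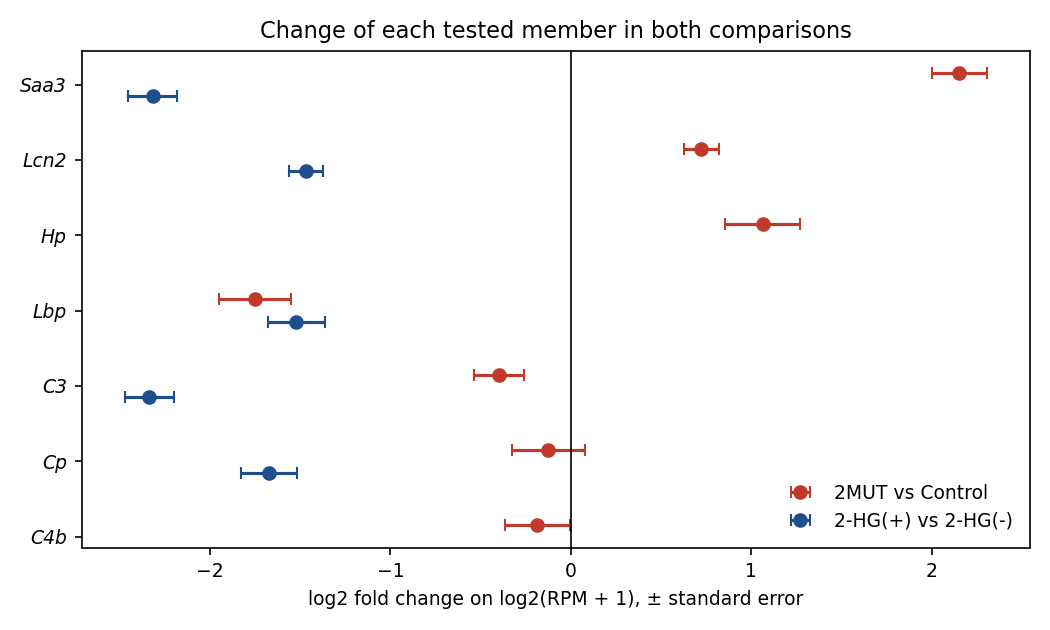
Log2 fold change on log2(RPM + 1), x axis, with its standard error as bars, of each member tested, in 2MUT against Control (red) and in 2-HG(+) against 2-HG(-) (blue). Saa3 lies at 2.15 and -2.32 and Lcn2 at 0.72 and -1.47, on opposite sides of 0, while Lbp lies at -1.75 and -1.52 on the same side. Hp and C4b have no blue point, since they were below the filter in the 2-HG libraries.

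Saa3 encodes serum amyloid A 3, an acute phase protein that binds lipids and bacterial products, and lies on chromosome 7 from 46711998 to 46715700 on the reverse strand, with 4 exons (GENCODE M21, GRCm38). In the Control libraries it was 148, 205 and 150 RPM, and in the 2MUT libraries 772, 868 and 603 RPM. Every 2MUT library was above every Control library, with the lowest 2MUT value well clear of the highest Control value. Saa3 averaged 168 ± 32.2 RPM for Control but 748 ± 134 RPM for 2MUT (SD, n = 3 each), 4.46-fold higher, and the log2 fold change was 2.15 (SE 0.15). Under 2-HG the order was turned, with 91.6, 98.1 and 80.1 RPM in 2-HG(-) and 14.7, 17.2 and 20 RPM in 2-HG(+). No 2-HG(+) library reached the level of a 2-HG(-) library. The means were 89.9 ± 9.1 RPM and 17.3 ± 2.63 RPM (SD, n = 3 each), 5.19-fold lower with 2-HG, with a log2 fold change of -2.32 (SE 0.14). A paralog, Saa1, shares 5.5% of the stretches of 30 bases of the Saa3 transcript, and it was listed at 0 RPM in all Control and 2MUT libraries.

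Lbp encodes the lipopolysaccharide binding protein, which hands bacterial lipopolysaccharide to CD14, and lies on chromosome 2 from 158306493 to 158332852 on the forward strand, with 15 exons. It was 22.6, 20.9 and 18.3 RPM in Control and 4.02, 6.59 and 5.92 RPM in 2MUT. The groups did not overlap, and here, unlike for Saa3, 2MUT was the lower group. Lbp averaged 20.6 ± 2.17 RPM for Control but 5.51 ± 1.33 RPM for 2MUT (SD, n = 3 each), 3.75-fold lower, with a log2 fold change of -1.75 (SE 0.20). In the 2-HG experiment the level was 3.7, 2.61 and 3.42 RPM in 2-HG(-) and 0.529, 0.421 and 0.457 RPM in 2-HG(+). The 2-HG(+) libraries were again all below their reference, but they held only 22 reads together against 164 in 2-HG(-), and Lbp passed the filter only through 2-HG(-). The ratio of the means, 3.24 ± 0.569 and 0.469 ± 0.055 RPM (SD, n = 3 each), was 6.92-fold, and the log2 fold change was -1.52 (SE 0.16), a size that depends on the value added before the logarithm and was -2.77 with edgeR on recovered reads.

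Among the members that handle iron and haem, Lcn2 encodes lipocalin 2, which withholds iron from bacteria by binding their siderophores and is also a protein of neutrophil granules. It lies on chromosome 2 from 32384633 to 32388252 on the reverse strand and has 7 exons. Its level was 2897, 2330 and 2424 RPM in Control and 4151, 4345 and 4076 RPM in 2MUT. All 2MUT libraries were above all Control libraries, and their spread was the smaller. The means were 2550 ± 304 and 4190 ± 139 RPM (SD, n = 3 each), 1.64-fold higher, with a log2 fold change of 0.72 (SE 0.10). In 2-HG(-) Lcn2 was 555, 575 and 538 RPM, and in 2-HG(+) 215, 204 and 184 RPM. The 2-HG(+) libraries lay below all 2-HG(-) libraries. The means of 556 ± 18.2 and 201 ± 15.6 RPM (SD, n = 3 each) were 2.77-fold apart, with a log2 fold change of -1.47 (SE 0.09). The 6 neutrophil markers, S100a8, S100a9, Ly6g, Mpo, Elane and Csf3r, each had a mean under 1 RPM in both tables, and their summed level was 0.137 to 0.444 RPM in Control, 0.826 to 2.009 RPM in 2MUT, 0.599 to 0.66 RPM in 2-HG(-) and 0.065 to 0.132 RPM in 2-HG(+).

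Hp encodes haptoglobin, which binds free haemoglobin, and lies on chromosome 8 from 109575128 to 109579172 on the reverse strand, with 5 exons. Its level was 9.47, 14.5 and 11.2 RPM in Control and 20.5, 32.6 and 23.9 RPM in 2MUT. Each 2MUT library was above each Control library. The means were 11.7 ± 2.57 and 25.7 ± 6.24 RPM (SD, n = 3 each), 2.19-fold higher, with a log2 fold change of 1.06 (SE 0.21). In the 2-HG table Hp was below the filter, with 0.98, 0.535 and 1.02 RPM in 2-HG(-) and 0.331, 0.361 and 0.261 RPM in 2-HG(+). These are 43 reads against 15, each library was above the floor of 3 reads, and the groups did not overlap. The 2-HG(+) mean was 2.66-fold lower, and the log2 fold change was -0.48.

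Cp encodes ceruloplasmin, the copper-carrying ferroxidase of plasma, and lies on chromosome 3 from 19957054 to 20009145 on the forward strand, with 20 exons. In Control it was 123, 126 and 67.1 RPM, and in 2MUT 102, 86.4 and 90.5 RPM. The groups overlapped, because the third Control library lay below all 2MUT libraries and the other two above them. The log2 fold change was -0.12 (SE 0.20), and it was 0.01, 0.03 and -0.42 without Control library 1, 2 and 3, so no direction is given. In 2-HG(-) the level was 1127, 1554 and 1211 RPM, and in 2-HG(+) 474, 404 and 340 RPM. All 2-HG(+) libraries were below all 2-HG(-) libraries. The means were 1297 ± 226 and 406 ± 67 RPM (SD, n = 3 each), 3.2-fold lower, with a log2 fold change of -1.67 (SE 0.15).

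**Figure D2:**
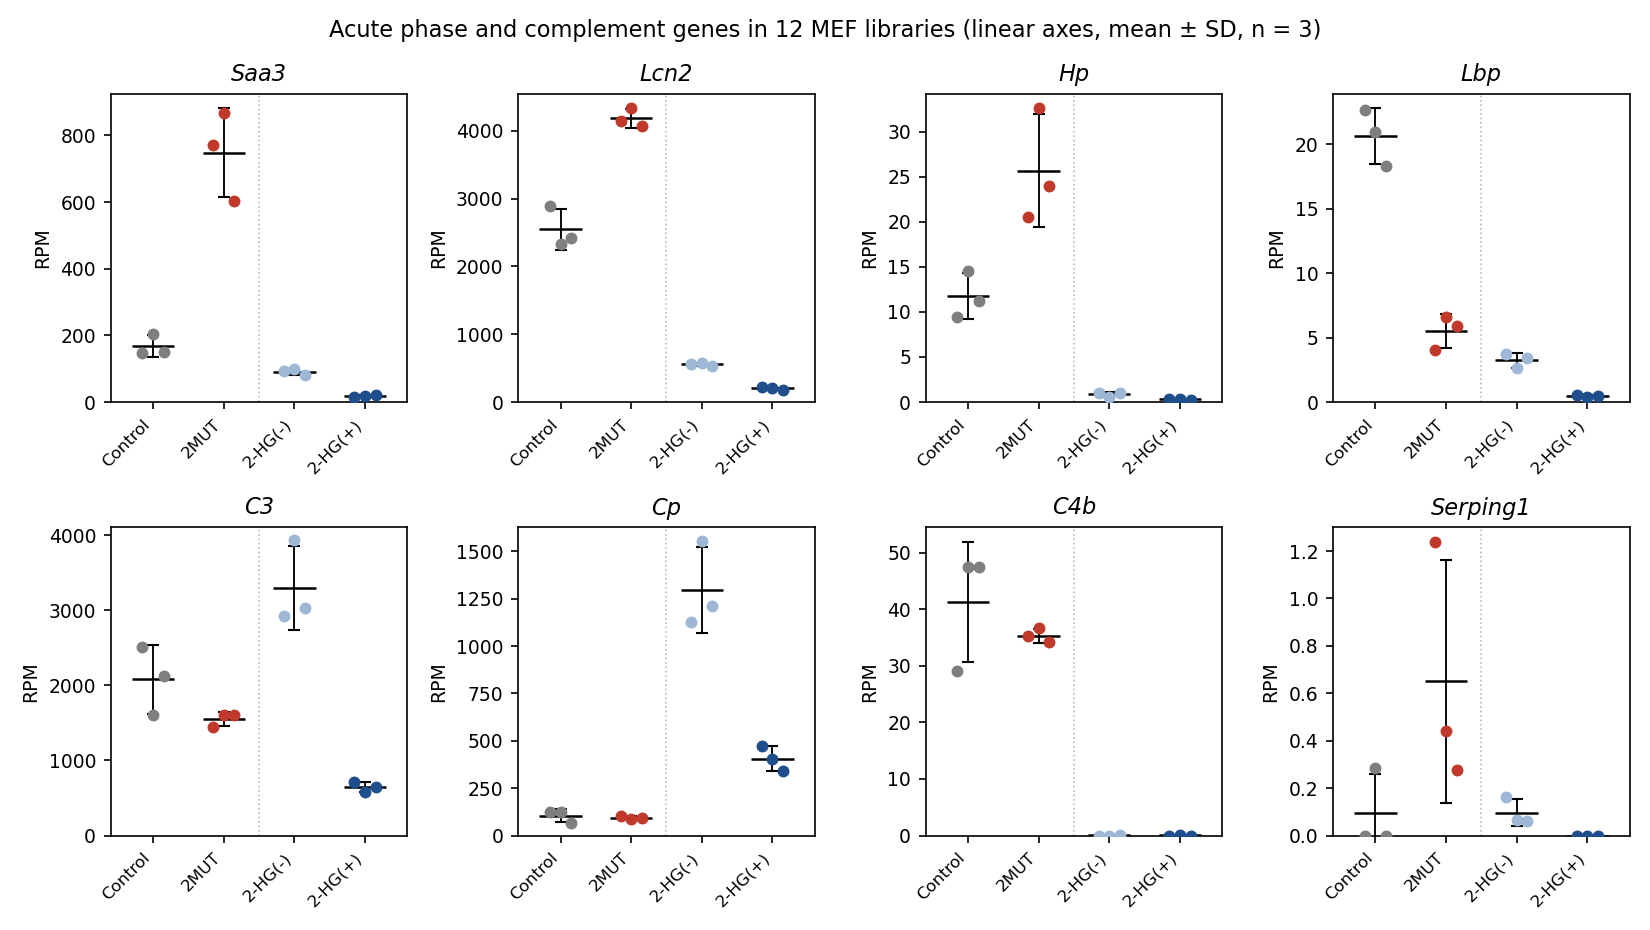
RPM (y axis, linear, from 0) of 8 members in the 3 libraries of each group (points), with the mean and SD, n = 3. Saa3, Lcn2 and Hp are higher in 2MUT than in Control and lower in 2-HG(+) than in 2-HG(-), though Hp is below the filter in the 2-HG libraries. Lbp is lower in both, and C3 and Cp separate clearly in the 2-HG experiment. The dotted line parts the tables, which were made separately.

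C3, the central component of complement, lies on chromosome 17 from 57203970 to 57228136 on the reverse strand, with 41 exons. It was 2517, 1605 and 2126 RPM in Control and 1447, 1612 and 1610 RPM in 2MUT. The second Control library lay within the range of the 2MUT libraries, and the other two lay above it. The means were 2082 ± 458 and 1556 ± 94.6 RPM (SD, n = 3 each), with a log2 fold change of -0.40 (SE 0.14). The value was -0.25 without Control library 1 and -0.57 without Control library 2, so its size rests on these libraries. As a description, C3 is 1 of the 5 members counted past the threshold, and it leaves that count without Control library 1 or 3 or any 1 of the 2MUT libraries. The 2-HG experiment gave a wider separation, with 2922, 3942 and 3032 RPM in 2-HG(-) and 719, 586 and 642 RPM in 2-HG(+). The groups did not overlap. The means were 3299 ± 560 and 649 ± 66.6 RPM (SD, n = 3 each), 5.08-fold lower, with a log2 fold change of -2.34 (SE 0.14).

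C4b encodes complement C4, the component of the classical and lectin pathways that C1s cleaves, and lies on chromosome 17 from 34728380 to 34743882 on the reverse strand, with 41 exons. It was 29, 47.4 and 47.4 RPM in Control and 35.2, 36.6 and 34.1 RPM in 2MUT. The 2MUT values lay inside the Control range, and the log2 fold change was -0.19 (SE 0.18). It was -0.42 without Control library 1, the value at which C4b came past the threshold, and -0.07 without Control library 2 or 3, so its size rests on these libraries. In the 2-HG table C4b had 1 read in 2-HG(-) and 1 read in 2-HG(+), so no fold is given. C4a, a paralog, shares 49.7% of the stretches of 30 bases of the C4b transcript, and a read from a shared stretch cannot be assigned with certainty. The mean of C4a was 0.52 RPM for Control and 0.969 RPM for 2MUT.

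Cfb, which supplies the protease of the alternative pathway, and Serping1, which encodes the C1 inhibitor, were at or near the floor. Cfb lies on chromosome 17 from 34856374 to 34862518 on the reverse strand, with 18 exons, and was listed at 0 RPM in all 6 Control and 2MUT libraries. The overlapping annotation Gm20547 shares 81.5% of the stretches of 30 bases of Cfb. Serping1 lies on chromosome 2 from 84765387 to 84775444 on the reverse strand, with 8 exons. It had 0, 2 and 0 reads in Control and 8, 3 and 2 reads in 2MUT, and 3, 1 and 1 reads in 2-HG(-) and 0 reads in each 2-HG(+) library. The Control and 2MUT libraries overlapped at 2 reads, and 2MUT library 1 was the only one of the 12 libraries above the floor. A low value need not mean little RNA in these tables, since the ferritin genes Fth1 and Ftl1, which cells in general express, were also low, with 2.07 and 0.471 RPM in Control and Fth1 at 0.0647 RPM in 2-HG(-).

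Levels in the reference cells also differed between the experiments. Lcn2 had a mean of 2550 RPM in Control and 556 RPM in 2-HG(-), and Hp 11.7 and 0.845 RPM. C4b was 41.3 RPM in Control and 0.02 RPM in 2-HG(-), whereas Cp was 105 and 1297 RPM. The tables list different entries and were made separately, so these levels were not tested against each other. The members hence started from unlike levels in the 2 comparisons.

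The genes whose pattern over the 12 libraries was most like that of a member were sought by Euclidean distance of log2(RPM + 1), centred on the reference group of each table, among 9242 genes. For Saa3 these were Cxcl5, a chemokine for neutrophils, at a distance of 1.12, Sfrp1, a secreted Wnt antagonist, at 1.31, and Orm2, an orosomucoid, at 1.31. The log2 fold changes of Cxcl5 were 1.73 with the mutant and -1.90 with 2-HG, and those of Sfrp1 1.53 and -2.32. Lcn2 was closest to Pdgfrl at 0.479, Kcnj2, a potassium channel, at 0.52 and Svep1 at 0.533, and the log2 fold changes of Pdgfrl were 0.84 and -1.37. Lbp was closest to Fmo1, a flavin-containing monooxygenase, at 0.774, to Car9, a carbonic anhydrase, at 0.792, and to Igf2, a growth factor, at 0.825. C3 was closest to Igtp, an interferon-inducible GTPase, at 0.616, to Clu, which encodes the complement inhibitor clusterin, at 0.673, and to the chemokine Ccl9 at 0.695. For Cp the nearest were 2310001H17Rik at 0.792, Gbp9 at 0.871 and Fcgrt at 0.891. A distance describes likeness of the values and was given no test.

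The other acute phase genes were examined as a list of 42 genes. In 2MUT, 14 passed the filter of 1 RPM, and 10 rose and 3 fell, where 16.5% of all genes tested rose and 17.3% fell. Of these calls, 5 rises and 2 falls were of genes under 1 RPM in the lower group, which had to differ to pass the filter, so nothing is read from the counts. Orm1, which encodes the plasma carrier orosomucoid 1, was 4, 7.12 and 4.79 RPM in Control and 70.1, 61.3 and 60.3 RPM in 2MUT. Each 2MUT library was thus far above each Control library, and the group means of 5.3 ± 1.63 and 63.9 ± 5.42 RPM (SD, n = 3 each) differed by 3.39 on the log2 scale, with a Benjamini-Hochberg adjusted p of 6.28e-07 by limma. Cd14, the lipopolysaccharide co-receptor to which Lbp delivers its ligand, rose from 12.2 to 38.5 RPM (log2 fold change 1.58, limma adjusted p = 6.54e-05), and Ptx3, a long pentraxin, from 52.6 to 148 RPM (1.51, limma adjusted p = 7.62e-05). Itih2, a heavy chain that binds hyaluronan, fell from 126 to 51.5 RPM (-1.26, limma adjusted p = 0.000117). Serpina3g, a protease inhibitor, went from 6.84 to 0.536 RPM (-2.35) and Lrg1, a leucine-rich glycoprotein of plasma, from 3.65 to 0.788 RPM (-1.33), and both passed the filter only through Control. The call of Lrg1 was lost without Control library 2 or 2MUT library 2 (limma adjusted p = 0.0682 and 0.0732). Smaller rises past the threshold were found for Mt1 at 0.48 and for Il1rn, the interleukin 1 receptor antagonist, at 0.44, a call of Il1rn that was lost without 2MUT library 1 (limma adjusted p = 0.0559). Saa2, Orm2, Orm3, A2m and Apoa1 also rose, but they passed the filter only through 2MUT means of 2.24 to 3.42 RPM, and A2m and Apoa1 were listed at 0 in all Control libraries. Apoa1 is also 1 of 6 hepatocyte markers, whose summed level was 0 to 0.137 RPM in Control and 1.545 to 4.099 RPM in 2MUT, with Alb, Ttr, Apob, Serpina1a and Fgb each under 1 RPM on average.

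In the 2-HG experiment, 8 of the 33 acute phase list genes in that table passed the filter, and 6 fell while 0 rose, where 16.7% of all genes tested fell and 16.1% rose. Of the 6, Orm1 and Orm2 passed the filter only through 2-HG(-). The list's median log2 fold change was -1.80 with them and -1.09 without, beside -0.02 over all genes. Il1rn, an antagonist that blocks the interleukin 1 receptor, was 443, 347 and 433 RPM in 2-HG(-) and 43.2, 52.7 and 62.5 RPM in 2-HG(+). The groups were far apart, and the log2 fold change was -2.93 (limma adjusted p = 1.79e-06). Serpina3g fell from 43.6 to 2.12 RPM (-3.83, limma adjusted p = 5.45e-07), Orm2 from 8.81 to 0.944 RPM (-2.35, limma adjusted p = 9.97e-06) and Orm1 from 5.77 to 0.383 RPM (-2.29, limma adjusted p = 4.1e-06). Itih2 fell by 1.30 and Mt1 by 0.87 on the log2 scale. Cd14 and Ptx3, both higher in 2MUT, had log2 fold changes of 0.24 and -0.25 that did not pass the threshold. Orm1, Orm2 and Orm3 are paralogs of each other, as are the Serpina3 genes, so reads could be split between them. How much sequence they share was not measured here. Serpina3g and Itih2 are in a gene table that the study drew from these samples and are no independent evidence of a direction.

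**Figure D3:**
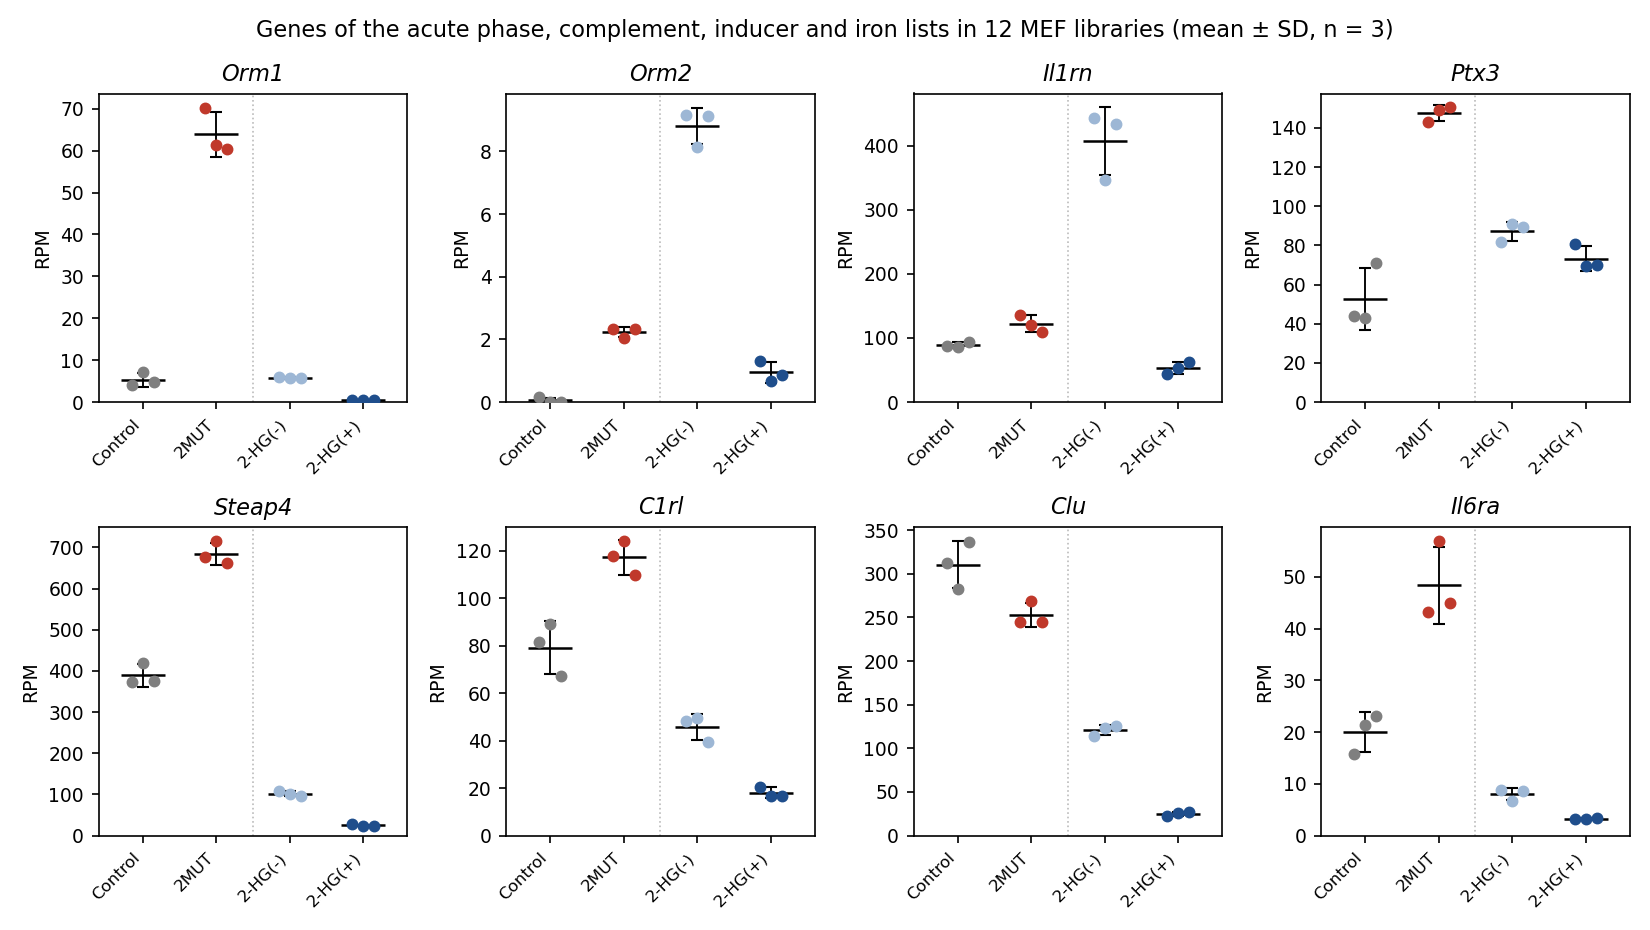
RPM (y axis, linear, from 0) of 8 genes of the lists in the 3 libraries of each group (points), with the mean and SD, n = 3. Orm1, Il1rn, Steap4 and Il6ra rise in 2MUT and fall in 2-HG(+), as does C1rl. The means of C1rl are 79.2 and 117 RPM in Control and 2MUT and 45.6 and 17.9 RPM in 2-HG(-) and 2-HG(+). Clu falls in both, but its call in 2MUT was lost when most single libraries were left out. Orm2 is near 0 in Control.

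Of 43 other complement genes, 10 passed the filter in the 2MUT comparison, of which 5 rose and 1 fell, where 16.5% and 17.3% of all genes did, with a median log2 fold change of 0.57 beside 0.01 over all genes. Itgb2, the β chain of complement receptor 3, rose from 2.37 to 8.02 RPM (log2 fold change 1.43, limma adjusted p = 0.000501), while Itgam, its α chain, was under 1 RPM. Cfp, or properdin, which stabilises the alternative pathway convertase, rose from 4.17 to 7.96 RPM (0.86, limma adjusted p = 0.0312), and Cr1l, the complement regulator Crry, from 19.2 to 28.8 RPM (0.58, limma adjusted p = 0.0191). C1rl, a protease related to C1r, rose by 0.57 on the log2 scale from 79.2 to 117 RPM, and C8g, 1 of the 5 rises, went from 0.471 to 1.84 RPM and passed the filter only through 2MUT. Clu, which encodes the inhibitor clusterin, fell from 310 to 253 RPM (-0.29, limma adjusted p = 0.0376). The 6 calls became 3 without Control library 1, 2MUT library 1 or 2MUT library 2. Cfp was lost without Control library 1 or 3 or 2MUT library 1 or 2, Cr1l without library 1 or 2 of either group, and Clu without any library but Control library 2, with limma adjusted p-values between 0.0529 and 0.122.

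With 2-HG, 7 of the 39 complement list genes in that table passed the filter, 2 rose and 2 fell, where 16.1% and 16.7% of all genes did, and the median log2 fold change was -0.38. Clu was 114, 123 and 125 RPM in 2-HG(-) and 22.1, 26.1 and 26.5 RPM in 2-HG(+). It fell far beyond the spread of the libraries, by 2.24 on the log2 scale (limma adjusted p = 1.63e-06). C1rl fell from 45.6 to 17.9 RPM (-1.30, limma adjusted p = 0.000118). C1qbp, a mitochondrial protein named for its binding of C1q, rose from 384 to 821 RPM (1.09, limma adjusted p = 0.000108), and Cr1l from 44.2 to 72.2 RPM (0.70, limma adjusted p = 0.000642). The terminal components C6, C7, C8a, C8b and C9 and the C1q genes C1qa, C1qb and C1qc were all under 1 RPM in both tables.

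Cytokines, receptors and transcription factors that induce acute phase genes formed a list of 37 genes. In 2MUT, 25 passed the filter, 8 rose and 5 fell, beside 16.5% and 17.3% of all genes, and the median log2 fold change was 0.01. Nfkbiz, an atypical IκB protein required for Lcn2 induction in several cell types, rose from 238 to 488 RPM (log2 fold change 1.04, limma adjusted p = 9.53e-06), and the interleukin 6 receptor gene Il6ra from 20.1 to 48.4 RPM (1.24, limma adjusted p = 0.000302). Tlr2, a receptor for bacterial lipoproteins, rose from 10.6 to 17.1 RPM (0.66, limma adjusted p = 0.0247), a call lost without Control library 1 or 2MUT library 2 or 3 (0.0577 to 0.0931). Cebpb, a C/EBP factor, rose by 0.48 on the log2 scale, from 416 to 581 RPM. Nfkb2, a subunit of NF-κB, fell from 352 to 179 RPM (-0.97, limma adjusted p = 2.16e-05), as did the receptor genes Il11ra1 (-0.92, limma adjusted p = 0.000525) and Il6st (-0.72, limma adjusted p = 0.000501), the latter encoding the shared signal chain gp130. The cytokines Il6, Il1a, Il1b, Tnf and Osm were under 1 RPM in Control and in 2MUT. Lif, a further cytokine of the list, was expressed, at 17.3 RPM in Control and 24 RPM in 2MUT. Its groups did not overlap, and it did not pass the threshold (0.45, limma adjusted p = 0.0532).

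In the 2-HG experiment 27 of 36 listed inducer genes passed the filter, 1 rose and 13 fell, beside 16.1% and 16.7% of all genes, and the median was -0.36. Lifr, the receptor for leukaemia inhibitory factor, fell from 152 to 59.5 RPM (-1.35, limma adjusted p = 7.57e-05), Il6ra from 8.03 to 3.21 RPM (-1.09, limma adjusted p = 0.000499), and Osmr, the oncostatin M receptor, from 366 to 187 RPM (-0.97, limma adjusted p = 0.000123). Il6st fell from 910 to 512 RPM (-0.83, limma adjusted p = 0.00014), and the transcription factor gene Stat3, which acts downstream of these receptors, from 227 to 128 RPM (-0.82, limma adjusted p = 0.000154). Il6 itself fell from 6 to 2.83 RPM (-0.85, limma adjusted p = 0.011), and Cebpd from 10.4 to 5.18 RPM (-0.88, limma adjusted p = 0.000773). Lif, a cytokine of this family, was the gene that rose, from 23.2 to 58.7 RPM (1.32, limma adjusted p = 0.000345). Nfkbiz and Cebpb, which rose in 2MUT, had log2 fold changes of -0.33 and 0.01 here and did not pass the threshold.

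**Figure D4:**
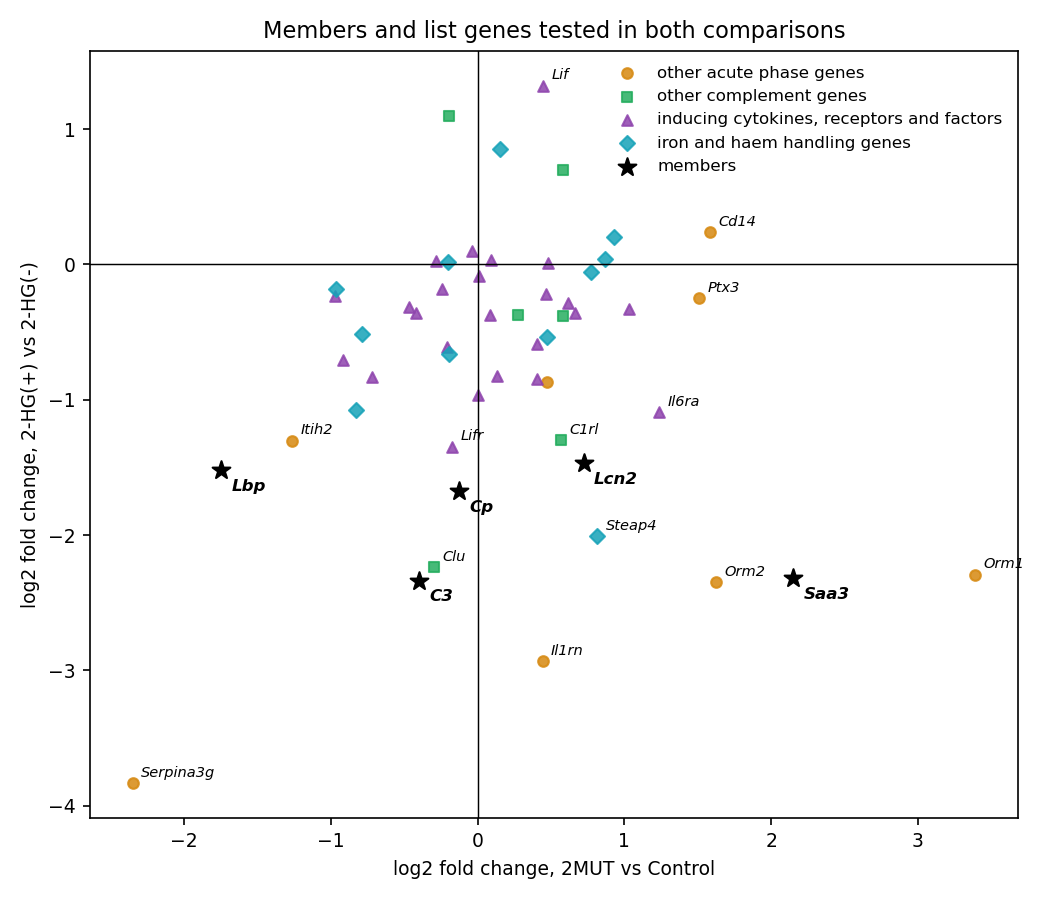
Log2 fold change on log2(RPM + 1) in 2MUT against Control (x axis) and in 2-HG(+) against 2-HG(-) (y axis) of members (stars) and of list genes tested in both comparisons (other symbols, by list). Saa3 at 2.15 and -2.32 and Lcn2 at 0.72 and -1.47 lie at the lower right with Orm1 at 3.39 and -2.29 and Steap4 at 0.82 and -2.01, whereas Lbp and Serpina3g lie at the lower left.

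The list of iron and haem handling genes, which sets Lcn2, Hp and Cp beside other genes of that function, held 20 genes. In 2MUT, 14 passed the filter, with 5 higher and 3 lower, beside 16.5% and 17.3% of all genes, and a median of 0.40, or 0.31 without Ftl1 and Lrp2, which were under 1 RPM in Control. Steap4, a metalloreductase, was 372, 420 and 374 RPM in Control and 676, 715 and 663 RPM in 2MUT, a rise of 0.82 on the log2 scale (limma adjusted p = 5.89e-05). Hmox1, haem oxygenase 1, rose from 323 to 604 RPM (0.93, limma adjusted p = 0.000691), and the metal transporter gene Slc39a14 from 3.34 to 6.8 RPM (0.87, limma adjusted p = 0.021), the last a call lost without Control library 1 or 2MUT library 1 or 2 (0.0716 to 0.076). Ftl1, ferritin light chain, counted among the 5, went from 0.471 to 5.07 RPM and passed the filter only through 2MUT. Heph, a membrane-bound ferroxidase related to Cp, fell from 22.6 to 11.1 RPM (-0.96, limma adjusted p = 0.000744), Steap3, an endosomal ferrireductase, from 17.3 to 9.37 RPM (-0.83, limma adjusted p = 0.00559), and Slc22a17, a receptor for lipocalin 2, from 20.3 to 11.3 RPM (-0.79, limma adjusted p = 0.00318).

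With 2-HG, 11 of the 17 iron list genes in that table passed the filter, 1 rose and 4 fell, beside 16.1% and 16.7% of all genes, with a median of -0.18. Steap4 was 108, 102 and 95.8 RPM in 2-HG(-) and 26.8, 23.3 and 23.9 RPM in 2-HG(+). It fell by 2.01 on the log2 scale (limma adjusted p = 2.17e-06), the opposite of its direction in 2MUT. Steap3 fell from 17 to 7.52 RPM (-1.07, limma adjusted p = 0.00034), Lrp1, an endocytic receptor that takes up haem bound to hemopexin, from 167 to 105 RPM (-0.67, limma adjusted p = 0.00367), and Slc22a17 from 5.23 to 3.39 RPM (-0.51, limma adjusted p = 0.0438). The call of Slc22a17 was lost without library 1 or 3 of either group (0.0978 to 0.141) and with a replicate block (0.0957). Tfrc, the transferrin receptor, rose from 107 to 193 RPM (0.85, limma adjusted p = 0.000129). The log2 fold changes of Heph and Hmox1 were -0.18 and 0.20 and did not pass the threshold.

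The difference of the signed log2 fold changes, 2MUT change minus 2-HG change, was tested with a limma contrast over the 12 libraries, for the list genes but not for the members. Of 9594 genes tested in both, 19.9% passed with a difference above 0, 19.5% with one below 0 and 39.4% with either, and the sign does not say which change was the larger. Orm1, Il1rn, Steap4, Il6ra, C1rl, Mt1, Nfkbia and Myd88, which rose in 2MUT and fell in 2-HG(+), were among those that passed. They were grouped by calls in opposite directions in the same libraries. That they passed follows largely from this and is no further support. Orm1 passed the filter in the 2-HG comparison only through 2-HG(-). The differences for Itih2, Il6st, Il11ra1, Steap3 and Slc22a17, which fell in both, were between -0.28 and 0.24 and did not pass.

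Other cell types that make acute phase proteins were looked for by their markers. Of 8 macrophage markers, 6 had a mean under 1 RPM in each table, and their summed level was 8.689 to 13.613 RPM in Control, 10.458 to 11.125 RPM in 2MUT, 12.368 to 14.706 RPM in 2-HG(-) and 8.991 to 11.107 RPM in 2-HG(+). Adipoq, Plin1, Lep and Cfd, 4 of 5 adipocyte markers, had means under 1 RPM, and the 4 epithelial markers were under 1 RPM in every group. Levels of the hepatocyte markers in the 2-HG table, 0.134 to 0.48 RPM summed in 2-HG(-) and 0 to 0.132 RPM in 2-HG(+), were near 0. Lyz2, a lysozyme of macrophages, rose from 0.56 to 2.62 RPM in 2MUT (limma adjusted p = 0.00408) but passed the filter only through 2MUT, and Cd68 was 9.25 and 6.62 RPM in Control and 2MUT and fell from 12.4 to 8.46 RPM in 2-HG(+) (limma adjusted p = 0.0214). The adipocyte gene Fabp4 was 57.5 and 47.6 RPM in Control and 2MUT and fell from 6.79 to 2.79 RPM in 2-HG(+) (log2 fold change -1.02, limma adjusted p = 0.00242). The part of these genes in the results for the members was not tested.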

How the data were processed

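RNA-seq values of 12 MEF libraries were used. Per the methods of the study, the authors prepared libraries with an Ion AmpliSeq kit, an amplicon method that targets a stretch of each transcript, sequenced them on an Ion Proton, aligned the reads with TMAP to the AmpliSeq mouse reference and counted them with the AmpliSeqRNA plug-in. The authors deposited RPM, reads of a gene per 1000000 counted reads, in a table per experiment, so a value reflects the amplified target. The genome build is not given in the sources used here. In each library 99.99% to 100% of the values were whole multiples of 1 read within 0.02 reads, which gave the depth. Replicates differed beyond counting error (chi-square per degree of freedom 5.88 to 33.1), and each was 1 replicate.

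Genes whose mean over the 6 libraries of a comparison reached 1 RPM were tested on log2(RPM + 1) with limma 3.58.1 (R 4.3.3) with a mean-variance trend, Benjamini-Hochberg adjustment over all genes and a threshold of 0.05. The difference between comparisons was tested as a contrast over 12 libraries for 9594 genes. Alternatives were 0.1 added before the logarithm, no filter, a filter of 10 RPM, median-of-ratios scaling, quantile normalization, an unmoderated test, a replicate block, edgeR 4.0.16 and DESeq2 1.42.0 on recovered reads, and each library left out. Named genes were the members and, per list and comparison, the 3 largest rises and 3 largest falls past the threshold without overlap and with a group mean of 5 RPM or more, and the 3 genes nearest each member. Other list genes were named after their values were seen. The members and lists were chosen with earlier results of these data known. Of the complement list, 1 gene is not reported here and was left out of its counts. List medians without genes under 1 RPM in a group were added after seeing the data. The tests were checked on simulated independent libraries with the same dispersion for every gene, a check that does not cover genes of wider spread. Positions come from GENCODE M21 on GRCm38. Tables were handled with pandas 2.3.3 and plots drawn with matplotlib 3.10.9.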

Additional observations from a re-analysis of the deposited data

Results flagged for a closer look

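Among the members, every 2MUT library lay on the high side of its reference and every 2-HG(+) library on the low side for Saa3 (log2 fold changes 2.15 and -2.32), Lcn2 (0.72 and -1.47) and Hp (1.06 and -0.48). Whether the comparisons differ was not tested for these 3 genes, since they were chosen with it in view. Hp was below the filter in the 2-HG libraries, with 43 reads in 2-HG(-) and 15 in 2-HG(+).

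For genes of the lists, the difference of the log2 fold changes, 2MUT change minus 2-HG change, was tested with limma, and 39.4% of 9594 genes passed. It was 5.68 for Orm1, 3.97 for Orm2, 3.37 for Il1rn, 1.76 for Ptx3, 1.48 for Serpina3g, 1.35 for Cd14 and 1.35 for Mt1 among acute phase genes. Among complement genes it was 1.94 for Clu, 1.87 for C1rl and -1.29 for C1qbp. Among inducers it was 2.33 for Il6ra, 1.37 for Nfkbiz, 1.17 for Lifr, 1.02 for Tlr2, 0.97 for Osmr, 0.99 for Nfkbia, 1.25 for Myd88, -0.87 for Lif and -0.73 for Nfkb2. The sign does not say which change was the larger, since Lifr and Osmr fell with 2-HG and had log2 fold changes of -0.17 and 0.0037 in 2MUT, and Nfkb2 fell in 2MUT and had -0.24 with 2-HG. Among iron genes the difference was 2.82 for Steap4, 0.83 for Slc39a14, 0.73 for Hmox1, -0.78 for Heph and -0.70 for Tfrc, of which that for Slc39a14 did not pass in 9 other settings nor that for Hmox1 in an unmoderated test. Orm1, Il1rn, Steap4, Il6ra, C1rl, Mt1, Nfkbia and Myd88 passed the threshold in opposite directions in the 2 comparisons, Nfkbia with log2 fold changes of 0.40 and -0.59 and Myd88 with 0.41 and -0.84. Their differences follow largely from these calls and are no further support for opposite directions. In 2MUT the call of Nfkbia was lost without Control library 1 or 3 or 2MUT library 1 or 2 (limma adjusted p = 0.0721 to 0.156) and that of Myd88 without any library but Control library 3 (0.051 to 0.111), and with 2-HG that of Myd88 without 2-HG(-) library 2 or 3 (0.075 and 0.109). Orm1 passed the filter with 2-HG only through the 2-HG(-) libraries. Orm2 had the same directions but passed it in 2MUT only through the 2MUT libraries and with 2-HG only through 2-HG(-). Clu fell in both, by more with 2-HG, and its call in 2MUT was lost without any single library but Control library 2. Serpina3g was lower in both but passed the filter in 2MUT only through Control, and its difference was 0.82 with 0.1 added (limma adjusted p = 0.0573), 0.71 with edgeR (adjusted p = 0.272) and 0.71 with DESeq2 (adjusted p = 0.279).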

How the results depend on the processing

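Scaling moved the median of all genes by at most 0.03 (log2). With an unmoderated test the genes called were 1021 higher and 1223 lower in 2MUT and 1098 and 1139 in 2-HG(+), the members called in 2MUT fell from 5 to 3, the complement list from 6 to 2 and the iron list in 2-HG(+) from 5 to 3. With a filter of 10 RPM, 3 complement and 6 acute phase genes were called in 2MUT, where fewer genes were tested. Leaving out 1 library gave 3 to 5 complement calls in 2MUT, with 3 without Control 1, 2MUT 1 or 2MUT 2. Of the members, Lbp in 2-HG(+) was -2.55 with 0.1 added, -1.28 after quantile normalization, -2.77 with edgeR and -2.78 with DESeq2, and C3 in 2MUT no longer passed without a filter, with either scaling, unmoderated, or without any single library but Control 2. The difference between comparisons, far from the threshold, changed sign for Cr1l, between -0.21 and 0.054 with single libraries left out, and for Itih2, between -0.094 and 0.19 with single libraries left out and -0.0027 with median-of-ratios scaling. The difference for Serpina3g did not pass with 0.1 added, edgeR or DESeq2, nor that for Slc39a14 in 9 settings. Hmox1 in 2MUT, its difference between comparisons (0.73, adjusted p = 0.0571) and Lrp1 in 2-HG(+) did not pass unmoderated, nor did Cfp (adjusted p = 0.156), Clu (0.091), Cr1l (0.0896), Tlr2 (0.114), Slc39a14 (0.108), C1rl (0.0543), Il1rn (0.0519), Lrg1 (0.146), Mt1 (0.0743) and Nfkbia (0.182) in 2MUT, nor Il6 (0.0845), Myd88 (0.184) and Slc22a17 (0.117) with 2-HG. Without a filter, Cfp (limma adjusted p = 0.0785), Clu (0.0594), Tlr2 (0.0523), Slc39a14 (0.0597) and Nfkbia (0.0624) in 2MUT and Myd88 (0.0522) and Slc22a17 (0.117) with 2-HG did not pass, nor did Clu in 2MUT (0.0567) and Slc22a17 with 2-HG (0.102) after quantile normalization. Causes were not tested. Replicate numbers did not pair the libraries (correlations of deviations for equal numbers 0.07, 0.03 and 0.03 in 2MUT and -0.46, -0.16 and 0.06 in 2-HG). For unequal numbers these correlations were -0.14 to 0.09 in 2MUT and -0.41 to 0.48 in 2-HG. A replicate block gave 1911 higher and 1987 lower genes in 2MUT and 1217 and 1286 in 2-HG(+), with 5 members called in each. The counts of reads limit Hp, Lbp, C4b and Serping1 in the 2-HG libraries.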
